A study of Mus musculus with 12 samples.

Results

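The 10 genes described here encode the core of the mammalian circadian clock and 1 of its best-known outputs: Per1, Per2, Per3, Cry1, Cry2, Arntl (also called Bmal1), Clock, Npas2, Nr1d1 (also called Rev-erb alpha) and Dbp. They were chosen by name, as genes of the clock, and all 10 were found among the 19268 genes of the table. RNA had been sequenced from the forebrain, without the olfactory bulb, of male C57BL/6J mice kept on a 12-h light and dark cycle with free access to food. The 4 groups were juvenile knock-out (P25-KO), juvenile wild-type (P25-WT), adult knock-out (P60-KO) and adult wild-type (P60-WT) mice, where P25 and P60 are postnatal days 25 and 60, and each group had 3 libraries from 3 mice. KO mice were homozygous for a germline deletion of exons 14 to 16 of Shank3, a scaffold of excitatory synapses, and WT mice carried no deletion. Pups of different genotypes were reared together by their mothers, and the time of day at which tissue was taken is not given in the sources used here.

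The clock is a feedback loop of transcription. ARNTL pairs with CLOCK, or in the forebrain also with its relative NPAS2, binds E-box sequences and switches on the Per, Cry, Nr1d1 and Dbp genes. PER and CRY proteins then accumulate, enter the nucleus and block ARNTL with CLOCK, so that their own genes are switched off again, and the cycle takes about a day. NR1D1 represses Arntl through ROR response elements, and DBP acts on D-box sequences, among them those of Per genes. As background, Arntl and Dbp RNA reach their peaks at roughly opposite times of day in most tissues, and Per1 and Per2 also respond acutely to neuronal activity and to glucocorticoids.

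The sequences below show which of these control elements lie near the starts of the genes. The RNA levels that follow were not tested against them. Promoters, taken as 250 bases before to 50 bases after each start, came from RefSeq on GRCm38.p6, and 9 of the 10 genes were matched, with 13 promoters; Per2 had no entry and was not searched. Both strands were searched for the letters CACGTG (E-box), CACGTT (E-prime box), TTATGTAA (D-box) and TAGGTCA (ROR motif), and since the E-box and E-prime box differ in their last letter, no site was counted as both. Each stretch is 30 bases on the strand of its gene, with the motif in capitals, so that an E-prime box on the other strand reads AACGTG.
Per1, chr11:69098772-69098801, plus strand, E-box: gcacccaagtcCACGTGcagggatgtgtgt
Cry1, chr10:85185096-85185125, minus strand, E-box: gtgccggtggtCACGTGgggtgcatgccgc
Cry1, chr10:85185115-85185144, minus strand, E-prime box: cacacttcagaAACGTGaggtgccggtggt
Cry2, chr2:92434217-92434246, minus strand, E-prime box: cacatggtgggAACGTGagggggcggagcc
Nr1d1, chr11:98775387-98775416, minus strand, E-prime box: gcacagatctcAACGTGccggctgctggaa
Per3, chr4:151044852-151044881, minus strand, D-box: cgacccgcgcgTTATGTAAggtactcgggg
Per3, chr4:151044805-151044834, minus strand, D-box: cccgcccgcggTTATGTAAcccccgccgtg
Arntl, chr7:113207530-113207559, plus strand, ROR motif: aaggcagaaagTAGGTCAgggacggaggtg

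Counting the first base of the transcript as 1, the E-box began at position -166 in Per1 and at -60 in Cry1. The E-prime box began at -79 in Cry1, at -166 in Cry2 and at -28 in Nr1d1. Per3 held its D-box letters at -205 and again at -158, and Arntl held the ROR motif at 31. Of all 32851 promoters of this length, 7.15% held the E-box letters, 4.68% the E-prime box, 2.61% the ROR motif and 0.938% the D-box. None of the 4 motifs lay in the windows of Clock, Npas2 and Dbp. Such matches describe letters in a window and are not measured binding sites.

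Values are the authors' normalized counts, scaled by them so that libraries can be compared. The depth behind them is unknown. In the targeted gene, KO and WT values did not overlap at either age, with 5174 ± 481 against 10779 ± 786 normalized counts of Shank3 at P25 and 4914 ± 339 against 9796 ± 749 at P60 (SD, n = 3). Exons outside the deletion still give reads. The forebrain genes Emx1, Emx2 and Lhx2 were present in every library. Of the list for the central clock and the hypothalamus, Six6 and Prok2 were low, with group means of 5.85 to 6.75 and 7.86 to 11.0 normalized counts. Other genes of that list were higher, with group means of 40.2 to 83.7 for Lhx1, 109 to 143 for Vipr2, 216 to 232 for Hcrt, 284 to 501 for Avp and 627 to 766 for Rgs16. Markers of cerebellum stood out in P60-WT replicate 2 (summed value 1245) and in P60-KO replicate 1 (384), against 72.5 to 124 in the other 10 libraries. In bulk tissue, fewer cells of a type and less RNA per cell cannot be told apart.

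Per kilobase of exon, the output gene Dbp and the repressor Nr1d1 were the most abundant of the clock RNAs, and the activators lay at the lower end. Averaged over the 12 libraries, Dbp (chr7:45705088-45710203) had 1525 normalized counts per kilobase, Nr1d1 (chr11:98767932-98775333) 1242, Cry2 (chr2:92403646-92434043) 1051 and Per1 (chr11:69095217-69109960) 705. Then came Per2 (chr1:91415982-91459324) with 359, Per3 (chr4:151003652-151044665) with 338, Clock (chr5:76209868-76304792) with 294, Npas2 (chr1:39193731-39363236) with 285, Arntl (chr7:113207465-113314126) with 244 and Cry1 (chr10:85131700-85185064) with 206. The ranges of neighbours in this order overlapped over the 12 libraries, except between Per1 and Per2. The positions are of the whole genes in GRCm38 (GENCODE M21). Reads of overlapping genes on opposite strands may be shared, since the kit does not mark strand: Dbp shares 18.0% of its exon bases with Sphk2, Nr1d1 8.55% with Thra, Cry2 4.67% with D930015M05Rik and Arntl 0.439% with an antisense gene.

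**Figure D1:**
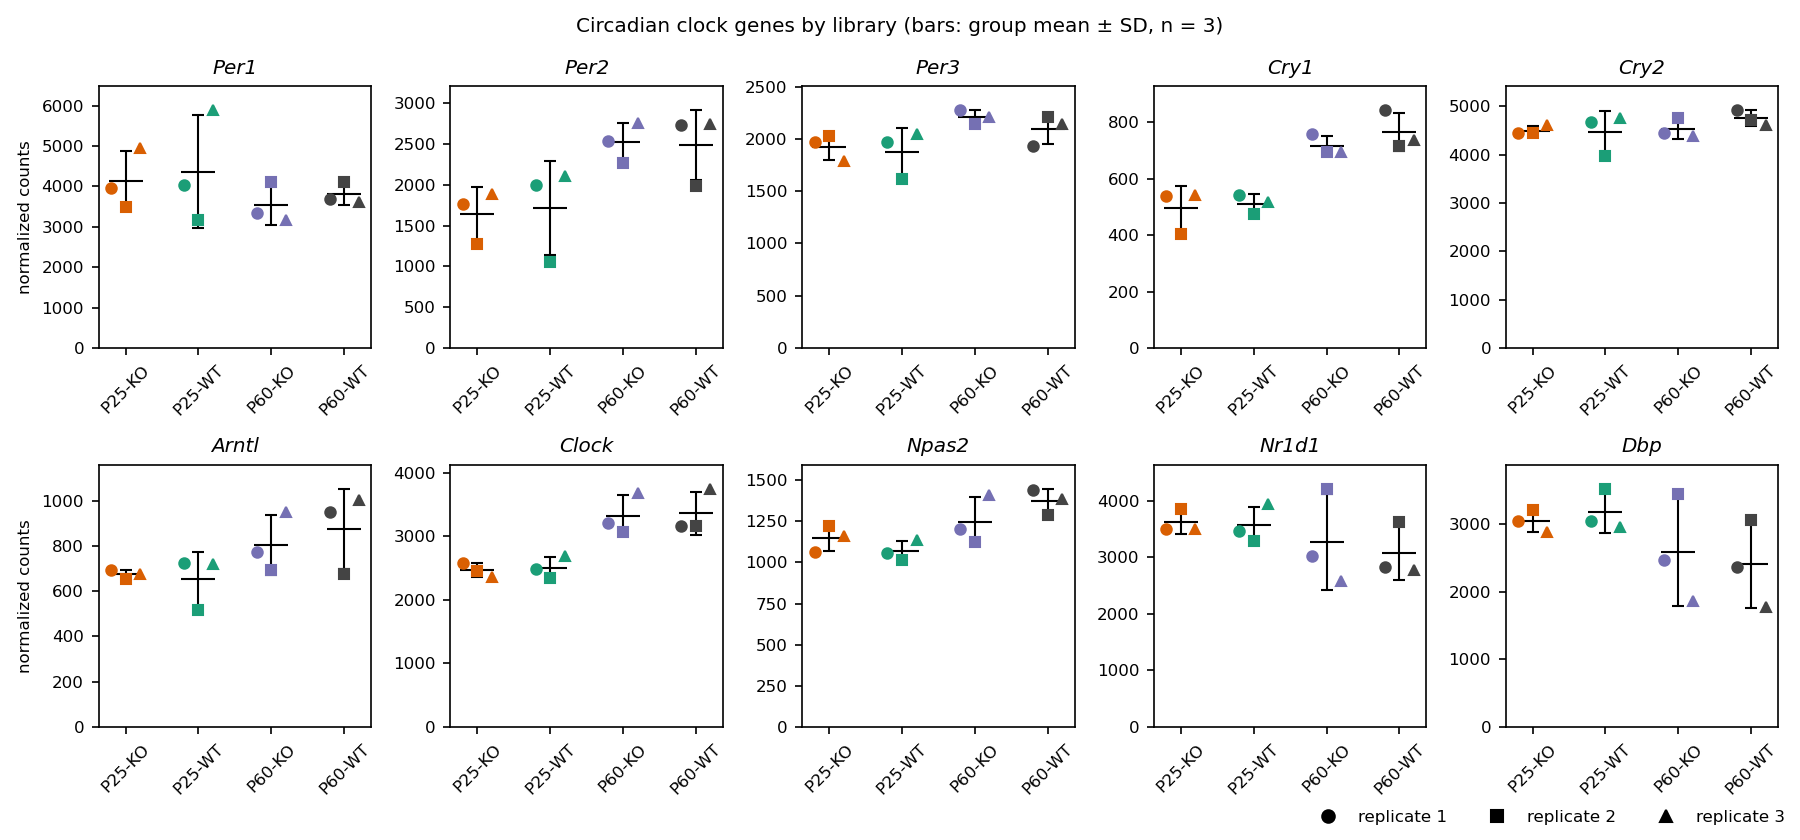
Normalized counts of the 10 clock genes (y axis, from 0) in each library of the 4 groups (x axis). Symbols mark replicates 1 to 3 and bars the group mean ± SD (n = 3). Cry1 and Clock lie higher in all P60 than in all P25 libraries, and Dbp spreads from 1771 to 3443 at P60.

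The first question was how the clock genes differed between juvenile and adult forebrain. The time of day of collection is not known for either age, so a difference in it cannot be told apart from age. Over both genotypes, 6 of the 10 genes rose from P25 to P60 and none fell at an adjusted p under 0.05 (limma with Benjamini-Hochberg adjustment over 17594 genes, 6 against 6 libraries). Of all genes tested, 37.6% passed this threshold, 18.3% as higher and 19.3% as lower at P60. Those that rose were Per2, Per3 and Cry1 among the repressors and all 3 activators, Arntl, Clock and Npas2. The median log2 fold change of the 10 genes was 0.21, against 0.0037 for all genes tested. At an unadjusted p under 0.05, 7 of the 10 passed, Dbp being the seventh and on the lower side. Of the 17594 genes tested, 8226 passed at that threshold.

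Clock, which encodes the main partner of ARNTL, had 2585, 2461 and 2364 normalized counts in the P25-KO libraries (replicates 1 to 3, the order used throughout), 2482, 2338 and 2686 in P25-WT, 3206, 3075 and 3686 in P60-KO, and 3169, 3159.8 and 3750.0 in P60-WT. All 6 adult libraries lay above all 6 juvenile ones. The difference was 0.42 ± 0.06 on the log2 scale (SE, 1.34-fold, adjusted p = 0.000102 by limma), and the exact permutation test within genotypes gave p = 0.005, the smallest that its 400 arrangements allow. For every clock gene, both tests over both genotypes take same-numbered KO and WT libraries as independent, although these had similar deviations in the clock genes. Such libraries were not permuted as units in the age comparison. Groups without overlap between the ages were found for 2 of the 10 clock genes, Clock and Cry1, both higher at P60, and for 19.6% of all genes tested (8.79% as higher).

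Arntl, the partner without which the loop stops, had 695, 652 and 677 normalized counts in P25-KO, 723, 518 and 722 in P25-WT, 772, 694 and 952 in P60-KO, and 951, 675 and 1005 in P60-WT. Replicate 2 was the lowest library of every group, and the ages overlapped. The difference between the ages was 0.33 ± 0.11 (log2, SE, 1.26-fold, adjusted p = 0.0321 by limma; exact permutation p = 0.05). This call was lost when P25-KO replicate 2, P25-WT replicate 2, P60-KO replicate 3, P60-WT replicate 1 or P60-WT replicate 3 was left out, with adjusted p from limma between 0.0525 and 0.0823.

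Npas2, the second partner of ARNTL and a gene expressed mainly in the forebrain, had 1064, 1222 and 1162 normalized counts in P25-KO, 1055, 1012 and 1134 in P25-WT, 1205, 1123 and 1412 in P60-KO, and 1442, 1289 and 1383 in P60-WT. In WT mice all adult values lay above all juvenile ones, while in KO mice the ages overlapped. Over both genotypes the difference was 0.24 ± 0.07 (log2, SE, 1.18-fold, adjusted p = 0.0156 by limma; exact permutation p = 0.025). Within WT mice it was 0.36 ± 0.09 (adjusted p = 0.0393 by limma), and within KO mice 0.11 ± 0.09 (adjusted p = 0.416 by limma). The test of the difference between the genotypes is given with the interaction.

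Among the repressors, Cry1, a strong inhibitor of ARNTL with CLOCK, had 539, 405 and 544 normalized counts in P25-KO, 544, 475 and 518 in P25-WT, 757, 697 and 693 in P60-KO, and 845, 717 and 738 in P60-WT. Every adult value exceeded every juvenile one, by 0.56 ± 0.08 on average (log2, SE, 1.47-fold, adjusted p = 0.000103 by limma; exact permutation p = 0.005). Its paralogue Cry2 had 4448, 4442 and 4609 in P25-KO, 4671, 3967 and 4760.2 in P25-WT, 4452, 4758 and 4378 in P60-KO, and 4930.4, 4727 and 4622 in P60-WT. For Cry2 the difference was 0.05 ± 0.05 (log2, SE, adjusted p = 0.420 by limma, 95% interval -0.05 to 0.16).

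Per2, whose protein joins the CRY proteins in the repressor complex, had 1767, 1272 and 1893 normalized counts in P25-KO, 1999, 1057 and 2107 in P25-WT, 2535, 2275 and 2758 in P60-KO, and 2730.0, 1991 and 2749.5 in P60-WT. Replicate 2 was the lowest library of every group, and only its P60-WT value overlapped the juvenile range. Per2 showed the largest difference of the 10 genes, 0.61 ± 0.15 (log2, SE, 1.52-fold, adjusted p = 0.00665 by limma; exact permutation p = 0.015). The interval was wide, 0.28 to 0.94.

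Per3, a member of the family that is dispensable for rhythm in mice, had 1967, 2024 and 1784 normalized counts in P25-KO, 1969.6, 1612 and 2044 in P25-WT, 2277, 2139.6 and 2206 in P60-KO, and 1934, 2209 and 2139.7 in P60-WT. Its KO libraries did not overlap between the ages and its WT libraries did. The difference over both genotypes was small, 0.18 ± 0.06 (log2, SE, 1.13-fold, adjusted p = 0.0296 by limma; exact permutation p = 0.015). It lost the call when P25-KO replicate 3, P60-KO replicate 1, P60-KO replicate 3, P60-WT replicate 2 or P60-WT replicate 3 was left out, with adjusted p from limma between 0.0543 and 0.0750, and at 0.128 without both libraries high in cerebellar markers.

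Per1, the fastest responder of the family, had 3958, 3491 and 4965 normalized counts in P25-KO, 4039, 3167 and 5901 in P25-WT, 3346, 4119.9 and 3178 in P60-KO, and 3683, 4118 and 3614 in P60-WT. The juvenile libraries bracketed the adult ones, and the difference of -0.18 ± 0.13 (log2, SE, adjusted p = 0.265 by limma, 95% interval -0.45 to 0.08) did not pass the test, except at 0.0488 without P25-WT replicate 2.

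The genes driven by ARNTL with CLOCK that feed back on the loop or leave it, Nr1d1 and Dbp, were lower on average in adults and did not pass the test. Nr1d1, the heme-sensing nuclear receptor that represses Arntl, had 3501, 3857 and 3491 normalized counts in P25-KO, 3462, 3294 and 3933 in P25-WT, 3016, 4210.0 and 2569 in P60-KO, and 2819, 3629 and 2781 in P60-WT. Replicate 2 was the highest library of both adult groups, inside or above the juvenile range, and the other 4 adult libraries lay below all juvenile ones. The difference was -0.20 ± 0.10 (log2, SE, adjusted p = 0.140 by limma, 0.0126 without P60-KO replicate 2). Thra, on the opposite strand, differed by -0.15 on the log2 scale.

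Dbp, a PAR bZIP factor and direct readout of ARNTL with CLOCK, had 3040.3, 3207 and 2880.2 normalized counts in P25-KO, 3047, 3520.0 and 2952 in P25-WT, 2463, 3443 and 1853 in P60-KO, and 2369.7, 3061 and 1771 in P60-WT. As for Nr1d1, replicate 2 was the highest and replicate 3 the lowest library of both adult groups, and only replicate 2 overlapped the juvenile range. The difference of -0.36 ± 0.14 (log2, SE, 0.781-fold, 95% interval -0.65 to -0.06) had an adjusted p of 0.0534 by limma and an exact permutation p of 0.07. It passed without P60-KO replicate 2 (adjusted p = 0.0074 by limma), without P60-WT replicate 2 (0.0234) and without both libraries high in cerebellar markers (0.0375). Sphk2, which overlaps Dbp on the opposite strand, differed by -0.17 on the log2 scale.

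Within WT mice 3 clock genes rose with age, Cry1 (adjusted p = 0.0178 by limma), Clock (0.0302) and Npas2 (0.0393), where 8.65% of all genes passed, 3.66% as higher and 4.99% as lower. Within KO mice 3 rose, Per2 (adjusted p = 0.00968 by limma), Cry1 (0.0106) and Clock (0.00425), where 20.7% of all genes passed, 9.37% as higher and 11.3% as lower. The WT calls depended on single libraries: none of the 3 held without P25-WT replicate 1, P60-WT replicate 1 or P60-WT replicate 3, and only Cry1 held without P60-WT replicate 2. Without each library in turn, the WT log2 fold change was 0.51 to 0.63 for Cry1 and 0.34 to 0.47 for Clock. That of Npas2 was 0.32 to 0.41. In these fits 122 to 2403 of all genes passed, against 1521 with every library. In KO mice the count of clock genes called was 3 or more without each library in turn, and 6 without P60-KO replicate 2. With 3 against 3 libraries the exact test cannot go below p = 0.1. Groups did not overlap between the ages for 3 of the 10 genes in WT mice (36.0% of all genes, 17.6% as higher) and for 4 in KO mice (39.4%, 18.9% as higher), all of them higher at P60.

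Oligodendrocyte markers moved with age in the opposite direction: all 6 of 6, among them Mbp, Mog and Mag, were lower at P60, with a median log2 fold change of -1.26, and their summed value was 367226 to 480416 at P25 and 182114 to 208111 at P60. Astrocyte markers were lower for 5 of 6 (median -0.27). Endothelial markers went the other way, with 2 of 6 higher and 0 lower (median 0.15). Among GABA interneuron markers 2 of 6 were higher and 2 lower, and among glutamatergic neuron markers 1 of 6 was higher and 3 lower. Microglial markers were lower for 2 of 6 and striatal projection neuron markers for 1 of 6, with 0 higher in either list. The part of these cell types in the age differences of the clock genes was not tested.

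**Figure D2:**
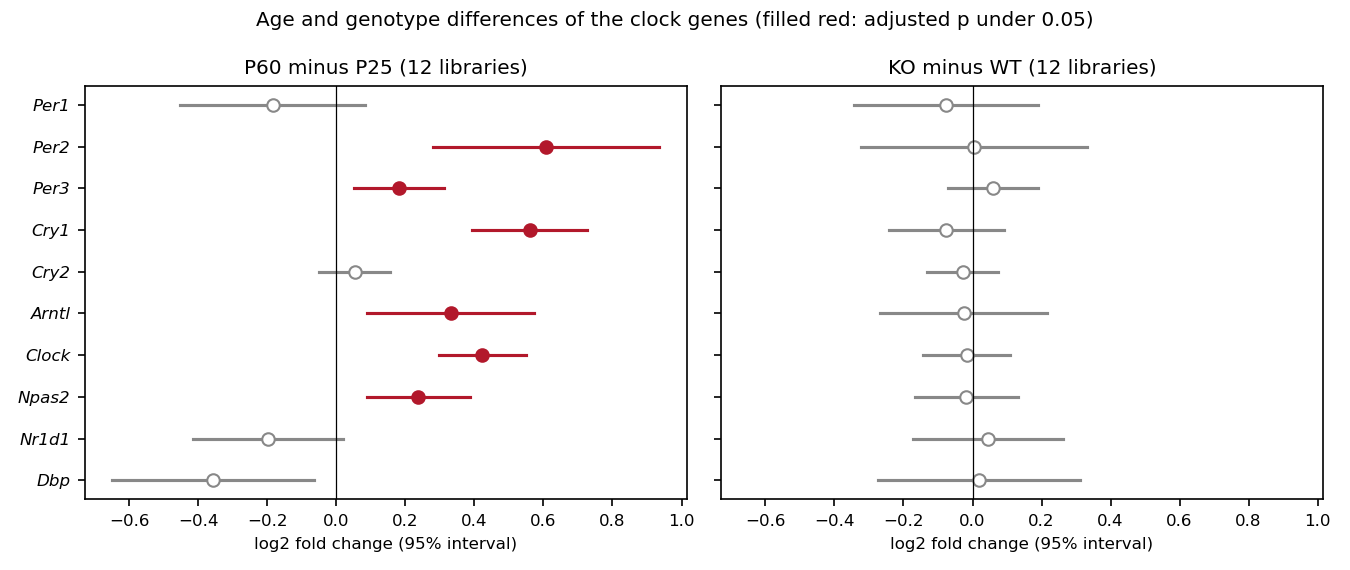
Log2 fold change of each clock gene with its 95% interval (x axis) for P60 minus P25 over both genotypes (left) and KO minus WT over both ages (right), 12 libraries each. Filled red points passed an adjusted p under 0.05: 6 genes in the age comparison, from 0.18 to 0.61, and none in the genotype comparison.

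The second question was whether loss of the Shank3 exons altered the clock genes. No clock gene passed the test in KO against WT mice at P25, at P60 or over both ages, and none had an unadjusted p under 0.05 or an exact permutation p of 0.05 or less. Of all genes, 0.00571% passed at P25, 0.00568% at P60 and 0.00568% over both ages, which was Shank3 alone in each. KO and WT values overlapped for all 10 clock genes at each age and over both, where 4.76% of all genes did not overlap at P25, 7.79% at P60 and 0.0739% over both ages.

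Over both ages the differences ran from -0.08 for Per1 to 0.06 for Per3 on the log2 scale. The intervals were narrowest for Cry2 (-0.13 to 0.08), Clock (-0.14 to 0.11) and Per3 (-0.07 to 0.19), and widest for Per2 (-0.32 to 0.33), Dbp (-0.27 to 0.31) and Per1 (-0.34 to 0.19). A missed threshold does not show that the genotypes were alike, and these intervals give the sizes that the 12 libraries leave possible. At P25 the values ran from -0.06 for Dbp to 0.11 for Npas2, and at P60 from -0.14 for Npas2 to 0.10 for Dbp. The sign of Dbp turned at P25 without P25-WT replicate 2 (0.02), and at P60 when P60-KO replicate 2 (-0.13) or replicate 3 of P60-WT (-0.10) was left out.

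The interaction asks whether the genotype difference itself differed between the ages. No clock gene passed (0 of 17594 genes did, 0% of those tested, and 288 had an unadjusted p under 0.05). Npas2 had the largest value, -0.25 ± 0.13 (log2, SE, unadjusted p = 0.0769, adjusted p = 1 by limma). Its age difference, called in WT mice and not in KO mice, was therefore not shown to differ between the genotypes.

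The third question was how the clock genes varied among mice of the same group. At P25 the most variable were Per2 and Per1, with within-group SDs of 0.45 and 0.37 on the log2 scale, larger than those of 99.0% and 97.4% of the 12907 genes with a mean of at least 100. At that age Dbp (0.11) and Nr1d1 (0.11) lay below the median gene (0.13). At P60 the order changed: Dbp had an SD of 0.42, larger than that of 98.8% of genes, Nr1d1 0.30 (96.4%) and Arntl 0.27 (95.3%), while Per1 had 0.16 (78.0%) and the median gene 0.097. Cry2 was the steadiest of the 10 at P60, with 0.056. Some of these SDs moved by over 1.5 times when 1 library was left out, a check chosen after the data had been seen: at P25, that of Per2 was 0.25 and that of Dbp 0.066 without P25-WT replicate 2, and that of Nr1d1 was 0.073 without P25-WT replicate 3, while at P60 that of Per1 was 0.088 without P60-KO replicate 2. Within P60-KO, Dbp differed 1.86-fold between its highest and lowest mouse, and within P60-WT 1.73-fold. No clock gene differed between KO and WT means by more than Npas2 at P60 (-0.14 on the log2 scale).

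**Figure D3:**
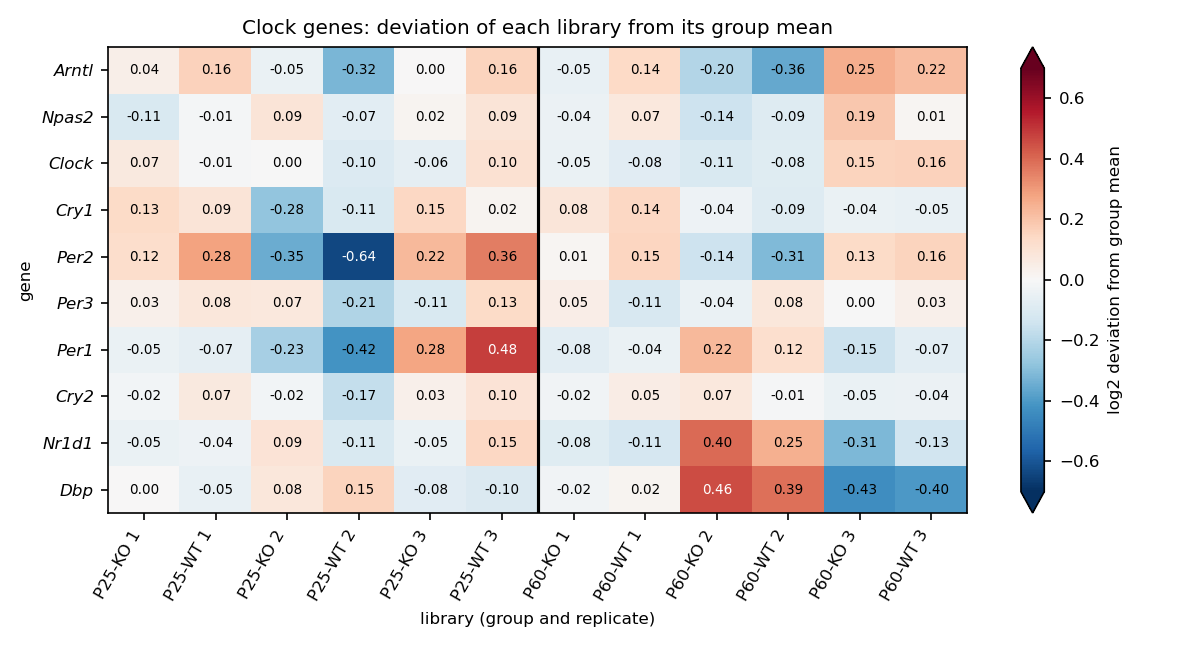
Log2 deviation of each library (x axis) from its group mean for the 10 clock genes (y axis); KO and WT libraries of the same number stand side by side and the line separates P25 from P60. At P60, replicates 2 of both genotypes are high in Dbp and Nr1d1 and low in Arntl, and replicates 3 are the reverse, while at P25 replicates 2 are low and replicates 3 high in Per1.

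The activator Arntl and the output Dbp deviated from their group means with opposite signs in 9 of 12 libraries. Deviations of the 12 libraries from their group means had Pearson's r of -0.851 (exact permutation within groups, two-sided p = 0.00309 over 1296 arrangements) and Spearman's rho of -0.860 (exact p = 0.00694). It was the only relation among the clock genes that was tested, and it was chosen with earlier results of these data known. This test takes the libraries of a group as independent of those of the other groups, although same-numbered KO and WT libraries had similar deviations in these genes. When the same-numbered libraries of an age were permuted as a unit, chosen after the data had been seen, the exact p was 0.0556 for r and 0.0833 for rho over 36 arrangements, so that neither passed 0.05. Within the ages, r was -0.890 at P25 (n = 6, exact p = 0.111) and -0.917 at P60 (n = 6, exact p = 0.0556), and these designs allow too few arrangements to go far lower. Without P25-WT replicate 2 and P60-WT replicate 2, the 2 libraries farthest from the median in Arntl, r was -0.926 with an exact p of 0.0694 over 144 arrangements. Leaving out 1 library at a time gave r from -0.911 to -0.780, each with an exact p under 0.05, and rho from -0.918 to -0.727. The exact p of rho was above 0.05 without P25-WT replicate 1 (0.0509), replicate 2 (0.0856) or replicate 3 (0.0509). Without both libraries high in cerebellar markers r was -0.791 (exact p = 0.0278), and the exact p of rho was 0.0625.

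The ratio of Dbp to Arntl sets the levels of both side by side in each library. It was 4.37, 4.92 and 4.26 in P25-KO, 4.21, 6.80 and 4.09 in P25-WT, 3.19, 4.96 and 1.95 in P60-KO, and 2.49, 4.54 and 1.76 in P60-WT. Replicate 2 had the highest and replicate 3 the lowest ratio of every group.

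**Figure D4:**
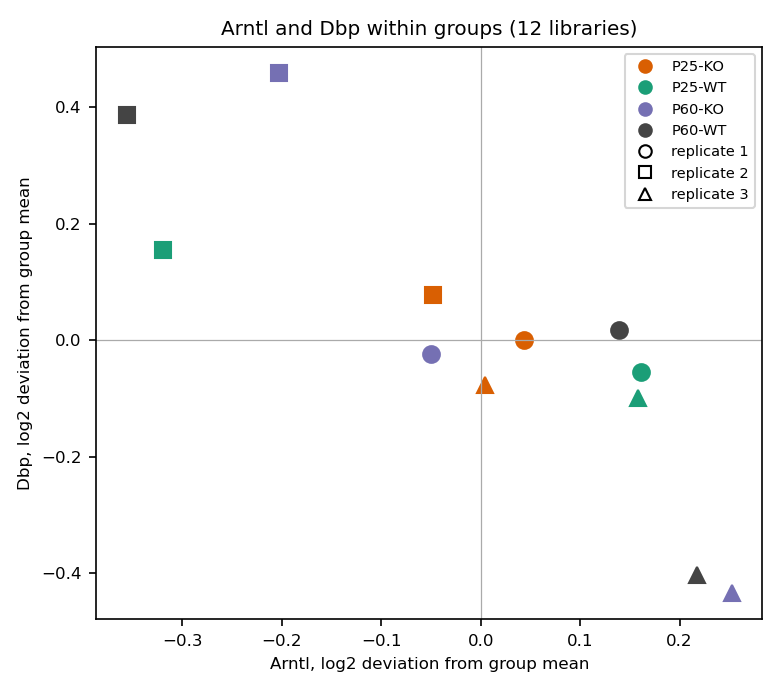
Deviation of Dbp (y axis) against that of Arntl (x axis) from the group mean, both on the log2 scale, for 12 libraries coloured by group with a symbol per replicate number. Replicates 2 lie at the upper left and replicates 3 of P60 at the lower right; Pearson's r is -0.851.

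Among all 45 pairs of clock genes, 11 had r above 0.5 and 6 below -0.5 over the 12 libraries, given as a description since the libraries are shared by every pair. The activators moved together, with r of 0.752 for Arntl and Clock, 0.681 for Arntl and Npas2 and 0.548 for Clock and Npas2. At P25 alone r for these pairs was 0.723, 0.361 and 0.251, against 0.769, 0.842 and 0.674 at P60. Per2 went with Arntl (r = 0.829) and against Dbp (-0.576), and Nr1d1 had r of 0.813 with Dbp and -0.567 with Arntl. Clock (-0.827) and Npas2 (-0.702) also went against Dbp. At P25 alone r with Dbp was -0.541 for Clock and -0.342 for Npas2, against -0.914 and -0.821 at P60.

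Several of these relations had opposite signs at the 2 ages. Per1 and Dbp had r of -0.911 at P25 and 0.915 at P60, over 6 libraries each, and Cry2 and Dbp -0.937 and 0.726. Nr1d1 and Arntl had 0.520 at P25 and -0.884 at P60, and Nr1d1 and Dbp -0.378 and 0.931. In all, 23 of the 45 pairs had opposite signs and 10 of them had a size above 0.5 at both ages. The difference between the ages was not tested for any pair.

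At P25, Per1 and Per2 were set beside 8 immediate early genes and 10 glucocorticoid-responsive genes, as a description over 6 libraries. Per1 had positive r with 8 of 8 immediate early genes (0.479 to 0.985) and with 8 of 10 glucocorticoid-responsive genes (-0.352 for Mt1 to 0.886). Per2 had positive r with 7 of 8 (-0.034 for Dusp1 to 0.990) and with 8 of 10 (-0.450 for Mt1 to 0.945). The share of all genes with positive r with Per1 or Per2 is not given here, so these counts lack a background. Across these libraries Per1 had r of 0.980 with Fos and 0.985 with Egr1, both immediate early genes, and Per2 had 0.990 with Fosb, 0.945 with Zbtb16 and 0.898 with Fkbp5, the last a co-chaperone of the glucocorticoid receptor and a classical target of it. These 5 pairs were singled out after their values had been seen. Fos had 699, 605 and 1398 normalized counts in P25-KO and 787, 577 and 1826 in P25-WT, so that replicate 3 was the highest of both groups, as it was for Per1. Fkbp5 had 1837, 985 and 1386 in P25-KO and 1509, 822 and 1420.3 in P25-WT, so that replicate 2 was the lowest of both groups, as it was for Per2. At P60, r was -0.104 for Per1 with Fos and -0.446 for Per1 with Egr1, and Per2 had 0.865 with Fosb, 0.400 with Zbtb16 and 0.283 with Fkbp5. Over the whole lists at P60, Per1 had negative r with 6 of 8 immediate early genes (median -0.384) and 6 of 10 glucocorticoid-responsive genes (median -0.097), and Per2 had negative r with 2 of 8 (median 0.358) and 6 of 10 (median -0.190). The difference between the ages was not tested.

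The pattern of Dbp was compared with that of every other gene. Of the 12906 genes compared over 12 libraries, the 5 outside the clock list with the highest r with the deviation of Dbp were Klhl40 (0.979), Slc52a2 (0.969), Noc4l (0.969), Rprm (0.961) and Gpr153 (0.954), and the 5 with the lowest were Jak3 (-0.977), Flt1 (-0.963), Foxo4 (-0.959), Nmt2 (-0.956) and Kdm5d (-0.952). The listed genes nearest the top, singled out after their values had been seen, were the cold-inducible RNA-binding proteins Cirbp (0.915, rank 22) and Rbm3 (0.905, rank 29), the deubiquitinase and clock output Usp2 (0.887, rank 45), and Ciart (0.836, rank 109), a repressor of ARNTL with CLOCK. At P25 alone r with Dbp was 0.756 for Cirbp, 0.248 for Rbm3 and 0.147 for Usp2, against 0.939, 0.959 and 0.966 at P60. The 8 heat shock genes in the list had negative r over the 12 libraries, from -0.209 for Hspe1 to -0.920 for Hsph1, although at P25 alone r was 0.607 for Hspe1 and 0.20 for Hsp90aa1.

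Cirbp had 1209, 1642 and 1038 normalized counts in P60-KO and 1136, 1778 and 1044 in P60-WT, the order of Dbp in both groups. Ciart had 391, 626 and 313 in P60-KO and 382, 617 and 298 in P60-WT, again the same order, although at P25 it went against Dbp (r = -0.860 at P25 and 0.979 at P60). Hspa1a, an inducible chaperone, had 647, 484 and 951 in P60-KO and 744, 462 and 811 in P60-WT, the reverse order. Among cell type markers at P60, 6 of 6 oligodendrocyte genes had positive r with Dbp (0.404 for Mobp to 0.995 for Mog), 6 of 6 endothelial genes had negative r (-0.996 for Flt1 to -0.594 for Abcb1a), 6 astrocyte genes ran from -0.945 for Gja1 to 0.00134 for Aqp4, and 5 of 5 microglial genes had positive r (0.215 for Tmem119 to 0.729 for Cx3cr1). At P25 the signs were mixed in each of these lists: r was positive for 5 of 6 oligodendrocyte genes (-0.644 for Mag to 0.527 for Mog), 4 of 6 endothelial genes (-0.678 for Flt1 to 0.533 for Cldn5), 2 of 6 astrocyte genes (-0.668 for Aqp4 to 0.397 for Gfap) and 3 of 5 microglial genes (-0.902 for Csf1r to 0.280 for C1qa). Their part in the pattern was not tested, and the share of all genes with positive r with Dbp is not given here.

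**Figure D5:**
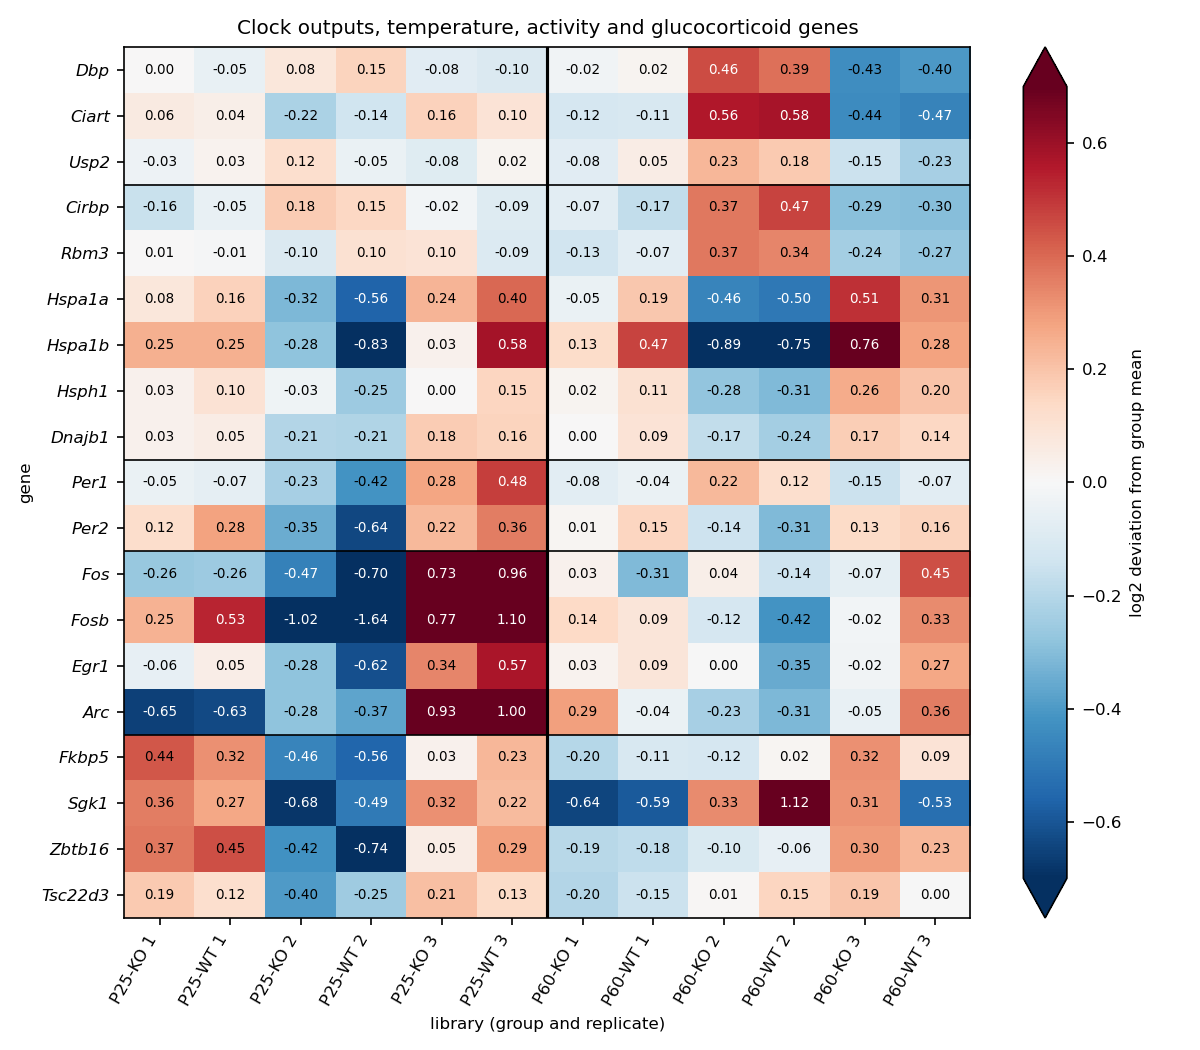
Log2 deviation from the group mean (printed in each cell; colours end at 0.7 in either direction) of clock outputs, temperature-responsive genes, Per1 and Per2, immediate early genes and glucocorticoid-responsive genes, from top to bottom, in the 12 libraries. At P60 Dbp, Ciart, Cirbp and Rbm3 are high in replicates 2 and low in replicates 3, and at P25 Fos and Arc are high in replicates 3.

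Some of the other genes of the clock network that passed the test between the ages over both genotypes, where 37.6% of all genes passed, are given next. In the secondary loop, Nr1d2 (0.26 ± 0.04 on the log2 scale, SE, adjusted p = 0.000471 by limma), a paralogue of Nr1d1, and the activator Rora (0.22) rose from P25 to P60 over both genotypes, and Rorb fell by 0.21. Of the 3 E-box repressors, Bhlhe41 (0.42) and Bhlhe40 (0.35) rose and Ciart did not pass. Of the 3 genes in the family of Dbp and its antagonist, Hlf (0.30) and Tef (0.12) rose and Nfil3 did not pass. Thus Dbp, at -0.36, stood on the other side of 0 from its paralogues Hlf and Tef; the difference between them was not tested.

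Among the kinases, ubiquitin ligases and proteases that set the stability of clock proteins, Btrc (0.16) and Csnk1a1 (0.12) rose and Usp2 fell by 0.27. Of 6 other clock genes, Arntl2 (0.58), the paralogue of Arntl, and the cell cycle kinase Wee1 (0.19) rose. Among 8 immediate early genes only Npas4 (0.62) rose. Of 10 glucocorticoid-responsive genes Pdk4 (0.41) rose and Mt2, Tsc22d3, Mt1 and Cdkn1a fell, by 0.59, 0.56, 0.44 and 0.42. Of 10 temperature-responsive genes Hspa1b (1.20), Hspa1a (0.68) and Hsp90aa1 (0.42) rose, and Cirbp fell by 0.34 (adjusted p = 0.0454 by limma). In KO against WT mice over both ages, 0 genes of these 8 lists passed and 0 had an unadjusted p under 0.05.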

How the data were processed

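Forebrain RNA of 12 mice (3 per group) was sequenced from TruSeq RNA Sample Prep Kit v2 libraries, which do not mark strand. According to the study's methods and the submitters' processing notes, the authors quantified transcripts with Salmon 1.1.0 with GC-bias correction, imported them with tximport and normalized them with DESeq2 (1.26.0 in the notes, with R 3.6.2; build GRCm38), and deposited a signal table of normalized counts. The transcriptome release is not given in the sources used here. The values are not whole reads, so depth is unknown, no count model was fitted, and precision is limited by 3 libraries per group. Every column was mapped to a sample by its label (0 unmapped).

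Groups and replicate numbers came from the sample titles. Log2(value + 1) was fitted with limma 3.58.1 (R 4.3.3; eBayes with an intensity trend) for genes with a mean of at least 10, with Benjamini-Hochberg adjustment over all genes tested and a threshold of 0.05. Fold changes on this scale understate low genes. KO was compared with WT and P60 with P25 within the other factor and over all 12 libraries, with the interaction. Single values were tested by two-sided exact permutation (SciPy 1.17.1, NumPy 2.4.6). Procedures were tested on simulated data. All 10 clock genes are named; of other lists, genes past the threshold in any fit, up to 4 per direction; and the 5 genes most and least like Dbp (mean of at least 100). The clock genes, lists and tests were chosen with earlier results of these data known. Symbols matched for 19252 identifiers (GENCODE M21). Of the 31-base words of their transcripts, at most 0.466% (Per3) were shared with other genes. The lists of other cell types and regions were markers written from general knowledge. Alternatives are given below; leaving out both libraries high in cerebellar markers was added after seeing the data. Some genes of the lists are not reported here.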

Additional observations from a re-analysis of the deposited data

How the results depend on the processing

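Without the intensity trend, the P25 and P60 genotype fits called 0 genes each, age in WT 192 genes and 0 clock genes (against 1521 and 3), and age in KO 1725 genes and 1 clock gene, Clock (against 3641 and 3); over both genotypes Per3 (adjusted p = 0.0531) and Arntl (0.0609) lost the call. With sample quality weights, 57 genes were called at P25 and Dbp there had a log2 fold change of 0.000608, and age in WT gave 8250 genes and 7 clock genes. The weights did not converge in these fits. A single fit of all 12 libraries gave 3442 genes for age in WT, and Per2 lost its call for age in KO (adjusted p = 0.0761). Leaving out 1 library at a time gave 0 to 8 genes at P25, 1 to 3 at P60, 122 to 2403 for age in WT with 0 to 3 clock genes, 2093 to 3230 for age in KO with 3 to 6, and 0 to 1 for the interaction; the log2 fold change of Dbp ran from -0.107 to 0.0193 at P25, from -0.132 to 0.314 at P60 and from -0.0747 to 0.372 in the interaction, and that of Per1 over both ages (KO against WT) from -0.173 to 0.0267, above 0 without P25-WT replicate 3. Age in WT gave 239 genes without P25-WT replicate 1, 2403 without P25-WT replicate 2, 2308 without P25-WT replicate 3, 231 without P60-WT replicate 1, 375 without P60-WT replicate 2 and 122 without P60-WT replicate 3. Without both libraries high in cerebellar markers, 3 genes were called at P60, 375 and 1 clock gene (Cry1) for age in WT, and 2323 for age in KO. The exact test over both genotypes named 6 clock genes by age, and 4 (Per2, Cry1, Clock and Npas2, without P60-WT replicate 3) to 8 (with Nr1d1 and Dbp, without P60-KO replicate 2) when 1 library was left out. By genotype it named 0 to 1, Cry2 at an exact permutation p of 0.035 without P25-WT replicate 2. This test was run on the clock genes only, so its counts have no share over all genes beside them. The r of Arntl with Dbp kept its sign throughout and lost its threshold without the 2 extreme libraries (-0.926) and when same-numbered libraries were permuted as a unit (-0.851, exact permutation p = 0.0556), the latter chosen after seeing the data. The pseudocount, the filter and equal totals, which moved the median gene by at most 0.051, changed no call given above. The causes were not tested.

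The replicate numbers were not taken to pair libraries. Over all genes, same-numbered KO and WT libraries had correlations of their deviations from -0.072 to 0.041 at P25 and from 0.060 to 0.166 at P60, and 8 of 12 libraries resembled their own number best. Over the 10 clock genes these were 0.683 to 0.726 at P25 and 0.361 to 0.926 at P60, and 11 of 12 libraries did, a hint from the data and not from the design. With the replicate number as a block, 0 genes were called at P25 and 6 clock genes for age in WT. Over both genotypes 7 clock genes were called by age, Dbp being added as lower (adjusted p = 0.00612 by limma). How many of all genes passed in these blocked age fits is not given here.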
